A study of Macaca mulatta with 24 samples.

Results

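Glycodelin (PAEP), osteopontin (SPP1) and 6 other genes known as markers of the receptive, mid-secretory primate endometrium were followed in the uterine lining of rhesus monkeys, on day 2, day 4 and day 6 counted from ovulation. Of the 8 listed genes, 5 were found by their gene name on the array, PAEP, SPP1, DPP4, GPX3 and MAOA, among 7546 gene names in the scanner files. EDNRB and CD55 carry an identifier in place of a name there, were found through the RefSeq gene table and are described beside the 5. C4BPA was not analysed here. PAEP, SPP1, GPX3 and MAOA, together with CD55, passed the filter on dim probes and were among the 12247 features tested, whereas DPP4 and EDNRB did not pass.

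Total RNA of endometrium from females of proven fertility was hybridised to 24 Agilent 1-colour microarrays. Conception cycles were mated and proven to have led to conception, and the animals of the non-mated cycles ovulated normally but were not mated. There were 4 arrays for each of the 3 days in either kind of cycle. The day is that of the sample descriptions, since the titles of 8 non-mated arrays name day 2 where their other labels give day 4 or 6, and since some labels of the conception arrays count from fertilization. Whether different animals stand behind the 4 arrays of a group is not in the labels, so the p-values measure the spread between these samples alone, which may be technical. Endometrium is a mixture of glands, stroma, vessels and leukocytes, and in such bulk RNA fewer cells of a type and less RNA per cell cannot be told apart.

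After ovulation, progesterone turns the proliferative endometrium into a secretory one, and the glands fill with products that bathe the embryo before it attaches. Glycodelin is a lipocalin secreted by the glands that dampens immune responses, and osteopontin is a secreted glycoprotein that binds integrins on the luminal epithelium and on the embryo. The other listed genes act around them: GPX3 encodes a secreted glutathione peroxidase that removes peroxides, MAOA a mitochondrial enzyme that breaks down amines, DPP4 a surface peptidase, EDNRB a receptor for endothelins, and CD55 a membrane protein that restrains complement.

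Each gene was read by 60-base probes, so each level below stands for 1 short stretch of a transcript. The 30 bases nearest the 3′ end of each probe are shown, because they state which stretch was measured for the genes the results turn on. Capitals mark AATAAA, the hexamer known as a polyadenylation signal, which occurred in 12.8% of the 20217 probes on the array.
PAEP: gggcagtctctggcagagattattAATAAA
SPP1: gcttacttgttttcccacagttgtccagca
GPX3: cctgtctgcccagtaaaagcctttctgcag
MAOA: tacgaagataccgtaagccttttctctgaa
DPP4: caaataggaattgtttttatggaagctttg
CD55: ggaaaaagcctgtgaaagatgtcttctttg

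Per the array files, on the rheMac2 build, the PAEP probe lies at chr15:2755665-2755724 on the minus strand and the SPP1 probe at chr5:80948860-80948919 on the plus strand. The GPX3 probe lies at chr6:147442290-147442349 and the MAOA probe at chrX:41490050-41490109, both on the plus strand. The DPP4 probe lies at chr12:25560999-25561058 and the CD55 probe at chr1:163001458-163001517, both on the minus strand. The 2 EDNRB probes lie at chr17:58387282-58387341 and chr17:58386380-58386439 on the minus strand. The PAEP probe alone among these 8 held the hexamer, as its last 6 bases, and 0 other probes on the array shared a run of 25 bases with any of them. No exon or UTR annotation of that build was used here.

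A level is the log2 processed signal of a probe minus the 75th percentile of its array, so 0 is the brightness that the probe at that percentile had. Levels of different probes are not comparable with each other. The scanner software flags a spot as well above background by its own test, and 21 arrays had 53.3% to 71.5% of their probes so flagged. The share was 4.33% on non-mated day 2 replicate 3, 37.9% on non-mated day 4 replicate 1 and 21.8% on non-mated day 4 replicate 2. On the first of these low-signal arrays all 7 genes were not well above background, and PAEP, SPP1, GPX3, MAOA and CD55 all stood at the same substitute value of -0.28. On the other low-signal arrays 5 of the 7 genes were not well above background. Results are therefore given with all 24 arrays and, where they differ, with the 21. Markers of epithelium and stroma, the defining cells of endometrium, were well above background on all 21 arrays for 3 of 3 and 6 of 7 genes measured. Conception day 2 replicate 2 stood apart in smooth muscle markers, which averaged 5.85 there and at most 2.92 on any other array.

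None of the 5 genes tested passed the threshold, a limma p adjusted over all features of under 0.05, in any of the 11 comparisons made. The share of all features that passed was 0% in 8 comparisons, in which limma gave an unadjusted p under 0.05 for 76 to 746 features. It was 0.00817% for cycle types on day 6 and for their mean over days, and 0.0163% for conception day 6 against day 2. Without the low-signal arrays it was 0.0245%, 0.0163% and 1.70% for these 3 comparisons and 0.00817% for conception day 4 against day 2, and no listed gene was among the features that passed. GPX3 was the 1 gene of the 5 with any unadjusted p under 0.05, in 4 comparisons.

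GPX3 was highest on conception day 4. Its levels there were 1.40, 2.37, 2.93 and 0.97, against -0.90, 0.49, 0.56 and -0.81 in non-mated cycles of that day, of which the first and second come from low-signal arrays. The conception arrays were all above the non-mated arrays, with no overlap, as was the case in that direction for 1.12% of all features, and for 7.19% when the low-signal arrays are left out and 4 arrays face 2. The log2 difference was 2.09 ± 0.62 (SE, n = 4 against 4), with a 95% interval of 0.80 to 3.37, and it did not pass the threshold after adjustment over all features (limma adjusted p = 0.687). The unadjusted p of the same limma test was 0.00272, and 746 of the 12247 features had one under 0.05.

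The GPX3 difference on day 4 was 2.08 on day 1 of scanning, where none of the arrays compared was of low signal. It was 2.09 on day 2 of scanning, where the 2 non-mated arrays were those of low signal. Without the low-signal arrays it was 2.05, with an interval of 0.43 to 3.67. The direction was the same under 34 of 34 alternative settings, among which the lowest limma adjusted p was 0.296, with the scan range as a block. Many of these settings, such as leaving out an array of another group, cannot change this difference. It ranged from 1.75 to 2.40 with single arrays left out and from 1.96 to 2.49 under the other settings. Of 4 macrophage markers measured, 3 were higher in conception cycles in the same comparison, with a median of 0.65, or 0.99 without the low-signal arrays. Their mean level lay between -2.02 and -1.43 on the conception arrays and at -2.73 and -2.78 on the non-mated arrays of full signal. On the low-signal arrays the macrophage mean was -2.25 and -1.73, so the groups overlapped over all arrays. CD68 differed by 1.14 ± 0.37 and CD14 by 0.98 ± 0.38 (limma adjusted p = 0.687 for both). Of the 4 macrophage markers, 2 were well above background on all 21 arrays. The 2 T and B cell markers measured were both higher, with a median of 0.74, or 1.53 without the low-signal arrays. Their mean level lay between -3.04 and -2.06 on the conception arrays and at -3.87 and -4.15 on the non-mated arrays of full signal. It was -3.13 and -1.73 on the low-signal arrays, so the groups overlapped over all arrays. Neither T and B cell marker was well above background on all 21 arrays. HBB, the red blood cell marker measured, differed by 1.42 ± 0.86 (limma adjusted p = 0.687). The part of these cells in the GPX3 values was not tested.

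Within conception cycles GPX3 was also higher on day 4 than on day 2. The day 2 levels were 0.14, 0.20, 0.01 and -0.86, all below the lowest day 4 level of 0.97. Such a gap upwards occurred for 2.02% of features. The log2 difference was 2.04 ± 0.62, with a 95% interval of 0.76 to 3.33, and did not pass (limma adjusted p = 1.00). Without conception day 2 replicate 2, the array of high smooth muscle markers, it was 2.15. This value shares the conception day 4 arrays with the comparison above and is not independent of it.

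By day 6 the GPX3 levels of conception cycles were spread over 2.27, -0.37, 0.89 and -0.68, so 1 array was as bright as those of day 4 and the others lay below them. The difference of day 6 from day 4 was -1.39 ± 0.62 (limma adjusted p = 1.00). In non-mated cycles GPX3 lay at -0.26, -1.88, -0.28 and 0.69 on day 2 and at 1.18, -0.20, 0.58 and 0.43 on day 6. These non-mated groups overlapped each other, and day 6 overlapped conception day 6, from which it differed by 0.03 ± 0.62 (limma adjusted p = 1.00, 95% interval -1.25 to 1.31). Over the 21 arrays the order of mean GPX3 levels ran from conception day 4 at 1.92 through conception day 6 at 0.52, non-mated day 6 at 0.50, conception day 2 at -0.13 and non-mated day 4 at -0.13 to non-mated day 2 at -0.48, with every neighbouring pair overlapping.

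The saturation value in the file headers differed between arrays, and the scanner's range was inferred from it. On that basis 6 arrays were taken as scanned over a single range. Of these, 3 were in conception day 2 and 1 each in conception day 4, conception day 6 and non-mated day 2. In 4 of these 4 groups the lowest GPX3 level, the low-signal array left aside, was on a single-range array. This was so in 3 of the 4 groups for SPP1 and for MAOA, in 2 for CD55 and in 1 for PAEP. The share over all features was not computed. With the scan range as a block, an alternative chosen after seeing the data, the GPX3 difference of conception day 4 from day 2 was 1.42 in place of 2.04, and that of conception from non-mated cycles on day 4 was 2.40 in place of 2.09.

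**Figure D1:**
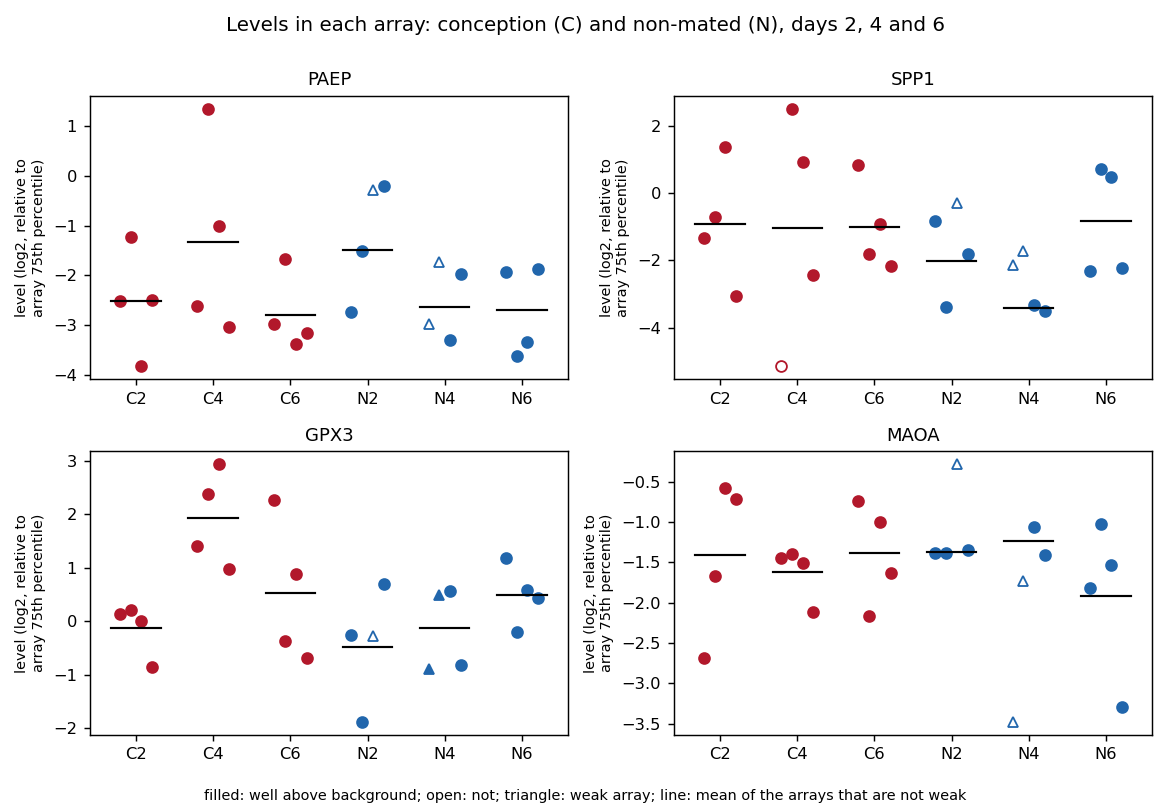
Levels of PAEP, SPP1, GPX3 and MAOA on each array (vertical axis, log2 relative to the 75th percentile of the array) in the 6 groups of 4 arrays, conception (C, red) and non-mated (N, blue) on days 2, 4 and 6. Filled symbols are well above background, triangles are low-signal arrays and lines are means of the other arrays. GPX3 at conception day 4, from 0.97 to 2.93, lies above conception day 2 and non-mated day 4, while the groups of PAEP and MAOA overlap and SPP1 spreads from -5.15 to 2.51 within conception day 4.

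PAEP varied as widely within a group as between groups. Its levels in conception cycles were -2.52, -1.23, -3.83 and -2.50 on day 2, -2.61, 1.35, -1.01 and -3.03 on day 4, and -2.99, -1.68, -3.39 and -3.17 on day 6. In non-mated cycles they were -2.74, -1.52, -0.28 and -0.19 on day 2, -2.98, -1.73, -3.31 and -1.97 on day 4, and -1.92, -3.63, -3.33 and -1.87 on day 6. The third array of day 2 and the first and second of day 4 in non-mated cycles are those of low signal, where PAEP was not well above background. Conception day 4 replicate 2 was the brightest of all 24 arrays for PAEP, and the other 3 arrays of its group lay within the range of the remaining groups.

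Comparisons of PAEP between cycle types did not pass on any day. Conception minus non-mated was -1.34 ± 0.79 on day 2 (limma adjusted p = 0.792), 1.17 ± 0.79 on day 4 (limma adjusted p = 0.687) and -0.11 ± 0.79 on day 6 (limma adjusted p = 1.00). The 95% interval was -2.98 to 0.30 on day 2, -0.47 to 2.81 on day 4 and -1.75 to 1.52 on day 6. The day 2 difference was -1.04 without the low-signal arrays and -0.11 after quantile normalization. The day 4 difference was 0.28 without conception day 4 replicate 2, 1.89 with the slide as a block and 2.15 after quantile normalization, which moved the median of all features to 0.41.

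PAEP was also compared between days. In conception cycles day 6 minus day 4 was -1.48 ± 0.79 (limma adjusted p = 1.00), or -0.59 without conception day 4 replicate 2. In non-mated cycles day 6 minus day 2 was -1.50 ± 0.79 (limma adjusted p = 0.765). The latter rests in part on a non-mated day 2 array of low signal and was -1.20 without the 3 such arrays and -0.21 after quantile normalization. The difference between cycle types in the change from day 2 to day 6 was 1.22 ± 1.12 (limma adjusted p = 0.904), and turned to -0.07 after quantile normalization. By mean over the 21 arrays PAEP was highest in conception day 4 at -1.32, then in non-mated day 2 at -1.48, and the 4 other groups lay between -2.52 and -2.80, with every neighbouring pair overlapping.

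SPP1 had the widest spread within groups of the 5 genes tested. In conception cycles its levels were -1.33, -0.71, 1.38 and -3.08 on day 2, -5.15, 2.51, 0.93 and -2.45 on day 4, and 0.82, -1.80, -0.91 and -2.16 on day 6. In non-mated cycles they were -0.84, -3.38, -0.28 and -1.80 on day 2, -2.15, -1.73, -3.32 and -3.50 on day 4, and -2.31, 0.70, 0.48 and -2.23 on day 6. On conception day 4 the lowest array was not well above background while the highest was the brightest of the series. The SD within groups was 1.93, wider than for 98.7% of features, and 2.04 and 99.6% over the 21 arrays, against a median feature at 0.757 and 0.516. Over the 20 arrays of full signal on which SPP1 was well above background it was 1.69, wider than for 98.8% of features.

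The repeated spots of an array lay closer, with a median difference of 0.22 log2 units for SPP1. The SDs within groups of the other genes over the 21 arrays were 1.26 for PAEP, wider than 95.2% of features, 1.11 for CD55 (92.7%), 0.96 for GPX3 (88.3%) and 0.70 for MAOA (71.8%). Their median differences between spots were 0.094 for PAEP, 0.12 for CD55, 0.19 for GPX3 and 0.16 for MAOA. The single-range arrays held the lowest SPP1 level in 3 of the 4 groups that had such an array, as they did for MAOA. In conception day 2 there were 3 single-range arrays and 1 other, and for MAOA non-mated day 2 rested on -1.39 against -1.38. The share over all features was not computed.

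No difference in SPP1 passed. Conception minus non-mated was 0.64 ± 1.25 on day 2 (limma adjusted p = 0.873), 1.63 ± 1.25 on day 4 (limma adjusted p = 0.699) and -0.17 ± 1.25 on day 6 (limma adjusted p = 1.00). On day 2 it was 1.07 without the low-signal arrays and 2.02 with the slide as a block, and it turned to -0.13 without conception day 2 replicate 3. The 95% interval on day 4 ran from -0.95 to 4.22. Without the low-signal arrays the day 4 difference was 2.37 ± 1.61, after quantile normalization it was 2.52, and it ranged from 0.45 to 3.00 when single arrays were left out, the lowest without conception day 4 replicate 2 and the highest without conception day 4 replicate 1.

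In non-mated cycles SPP1 lay at -3.32 and -3.50 on the day 4 arrays of full signal and at -2.31 to 0.70 on day 6. Those 2 and 4 arrays did not overlap, as was so upwards for 8.06% of features with so few arrays. Over all 24 arrays the groups overlapped, and the difference was 1.84 ± 1.25 (limma adjusted p = 0.785). The order of means over the 21 arrays ran from non-mated day 6 at -0.84, through conception days 2, 6 and 4 at -0.94, -1.01 and -1.04 and non-mated day 2 at -2.01, to non-mated day 4 at -3.41, and every neighbouring pair overlapped.

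Osteopontin acts through integrins and CD44, of which 3 of 7 listed genes were on the array and 2 were tested. ITGAV, the alpha v integrin subunit, differed between conception and non-mated cycles by 0.72 ± 0.32 on day 4 and ITGB5, a beta subunit that pairs with it, by 0.59 ± 0.54 (limma adjusted p = 0.687 and 0.715). Without the low-signal arrays these were 0.60 and 0.27. Neither passed in any comparison.

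**Figure D2:**
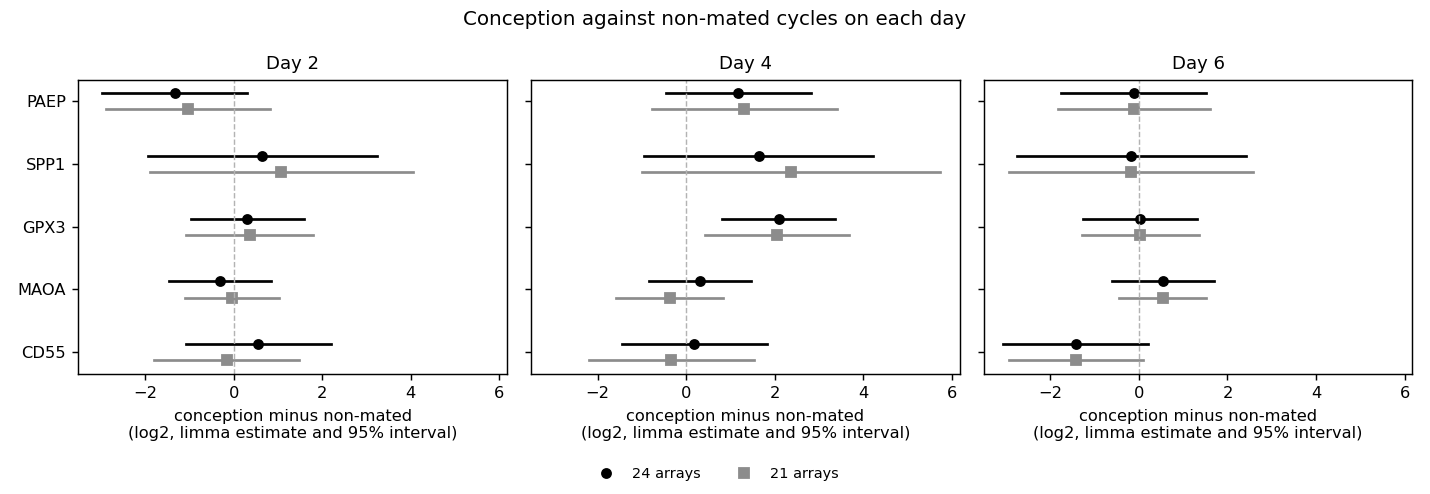
Conception minus non-mated level (horizontal axis, log2) of 5 genes on each day, as limma estimate with its 95% interval, from 24 arrays (black circles) and from the 21 arrays without low signal (grey squares). The intervals of GPX3 on day 4, 0.80 to 3.37 and 0.43 to 3.67, lie above 0 without adjustment for the number of features, and the others include 0.

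MAOA had the narrowest spread of the 5 genes. In conception cycles it lay at -2.68, -1.67, -0.57 and -0.72 on day 2, at -1.44, -1.40, -1.51 and -2.11 on day 4, and at -0.73, -2.17, -1.0 and -1.63 on day 6. In non-mated cycles it lay at -1.38, -1.39, -0.28 and -1.34 on day 2, at -3.48, -1.73, -1.07 and -1.41 on day 4, and at -1.82, -1.03, -1.53 and -3.29 on day 6. The value of -0.28 and those of -3.48 and -1.73 are from the low-signal arrays and were not well above background. Of the arrays with full signal, non-mated day 6 replicate 4 was the lowest and conception day 2 replicate 3 the highest, and the groups overlapped in every comparison made.

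For MAOA, conception minus non-mated was -0.31 ± 0.56 on day 2 (limma adjusted p = 0.859), 0.31 ± 0.56 on day 4 (limma adjusted p = 0.841) and 0.53 ± 0.56 on day 6 (limma adjusted p = 1.00). The day 2 value was -0.04 without the low-signal arrays and turned to 0.86 after quantile normalization, and the day 6 value was 0.08 without non-mated day 6 replicate 4. On day 4 the direction turned without the low-signal arrays, to -0.38, with an interval of -1.58 to 0.83. The means over the 21 arrays lay between -1.24 in non-mated day 4 and -1.92 in non-mated day 6.

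DPP4 was well above background on 6 of 24 arrays, and 4 of these were of conception cycles on days 4 and 6. On conception day 4, replicate 2 measured -3.11 and replicate 3 measured -0.67, and on conception day 6 replicate 2 measured -3.77 and replicate 3 measured -3.54. In non-mated cycles, day 2 replicate 4 measured -5.48 and day 6 replicate 3 measured -3.75. None of the conception day 2 and non-mated day 4 arrays measured it. The 2 spots of the probe differed by up to 4.52 log2 units, on non-mated day 6 replicate 3, so that value rests mainly on 1 spot.

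Since no conception day 2 array measured DPP4, its fold was taken against the lowest signal well above background there. The brighter arrays that did not measure it entered at their readings, so these folds are approximate and not strict bounds. By this measure conception day 4 was 3.22-fold higher than day 2, with 2 of its 4 arrays measured, and mean readings of -3.62 and -6.16. Without conception day 4 replicate 3 the fold was 1.63. Conception day 6 was 1.55-fold higher than conception day 2, again with 2 of 4 arrays measured, and 1.19-fold without its replicate 3. Against non-mated day 4 the fold for conception day 4 was 1.06, since low-signal arrays raise the lowest level that can be measured there. With no filter on dim probes, DPP4 differed between cycle types on day 4 by 1.26 ± 1.48 (limma adjusted p = 0.863). Of the 6 listed relatives and partners of DPP4, 4 were tested and none passed in any comparison. ADA, the adenosine deaminase that DPP4 binds at the cell surface, differed by 0.50 ± 0.42 on day 4 (limma adjusted p = 0.704), or 0.20 without the low-signal arrays.

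CD55, known through the RefSeq table alone, was well above background on 23 of 24 arrays. In conception cycles its levels were 1.64, 2.16, 3.11 and 2.68 on day 2, 3.22, 3.00, 0.37 and 1.23 on day 4, and 2.46, -0.53, 0.39 and 3.42 on day 6. In non-mated cycles they were 2.26, 2.14, -0.28 and 3.24 on day 2, 1.32, 1.21, 2.76 and 1.82 on day 4, and 2.33, 3.21, 2.95 and 2.96 on day 6. On conception days 4 and 6, 2 arrays of 4 were low and the others were about as bright as those of day 2, whereas the non-mated day 6 arrays lay close together.

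The log2 difference of CD55 between cycle types was -1.43 ± 0.79 on day 6 (limma adjusted p = 1.00), with a 95% interval of -3.06 to 0.21, and it was -0.83 with the slide as a block and -0.77 without conception day 6 replicate 2. Its SD was 1.82 in conception day 6 and 0.38 in non-mated day 6. On days 2 and 4 the differences were 0.55 and 0.18 with all arrays and -0.16 and -0.34 without the low-signal arrays. The change from day 2 to day 6 differed between cycle types by -1.98 ± 1.12 (limma adjusted p = 0.904), or -1.27 without the low-signal arrays and -3.06 after quantile normalization. The epithelial markers averaged 2.81 and 3.34 on the low CD55 arrays of conception day 6, replicates 2 and 3, against 2.93 and 2.72 on replicates 1 and 4. The smooth muscle markers averaged 1.92 and 2.52 on the low arrays of that group against 0.88 and 0.90, and on conception day 4 they averaged 1.72 and 1.73 on the low arrays, replicates 3 and 4, against 0.18 and 1.29. Some arrays of other groups ran otherwise. These markers averaged 0.05 on conception day 2 replicate 1, where CD55 was 1.64. They averaged 5.85 on conception day 2 replicate 2 and 2.92 on non-mated day 2 replicate 4, where CD55 was 2.16 and 3.24. On non-mated day 6 replicate 4 they averaged 2.27, where CD55 was 2.96. Non-mated day 4 replicates 3 and 4 ran as the conception arrays of days 4 and 6 did, at 0.28 and 2.56, with CD55 at 2.76 and 1.82. HBB lay at 3.22 and -0.52 on the low arrays of conception day 6 against 4.71 and 4.68. The part of other cell types in the CD55 values was not tested.

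Among other regulators and components of complement, 4 of 7 listed genes were tested and none passed in any comparison. On day 4 all 4 were higher in conception cycles, with a median of 0.70, against 0.02 over all features, and of 0.40 without the low-signal arrays. CFI, a protease that inactivates complement fragments, differed by 0.84 ± 0.45 and CD46, a membrane cofactor of it, by 0.55 ± 0.49 (limma adjusted p = 0.687 and 0.709). Without the low-signal arrays CFI stood at 0.48 and CD46 turned to -0.39.

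EDNRB was near the background on both of its probes. The one was well above background on 1 and the other on 5 of the 21 arrays with full signal. The 5 levels of the latter were measured on conception day 2, in 1 array at -3.46, and on 2 arrays each of non-mated day 4 and day 6, where they lay between -5.82 and -5.59. That conception day 2 array, replicate 2, is the one that also measured the other probe, at -5.03, and the one with smooth muscle markers at 5.85. The part of smooth muscle in it was not tested. No fold is given for conception day 2 against the other groups, since the fold taken as for DPP4 was under 1. Of the endothelin genes that act upstream or beside it, 3 of 6 were tested. EDN1, which encodes endothelin-1, differed between cycle types by -0.99 ± 0.54 on day 6, and EDN3, another ligand, by 1.51 ± 0.88 (limma adjusted p = 1.00 for both).

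**Figure D3:**
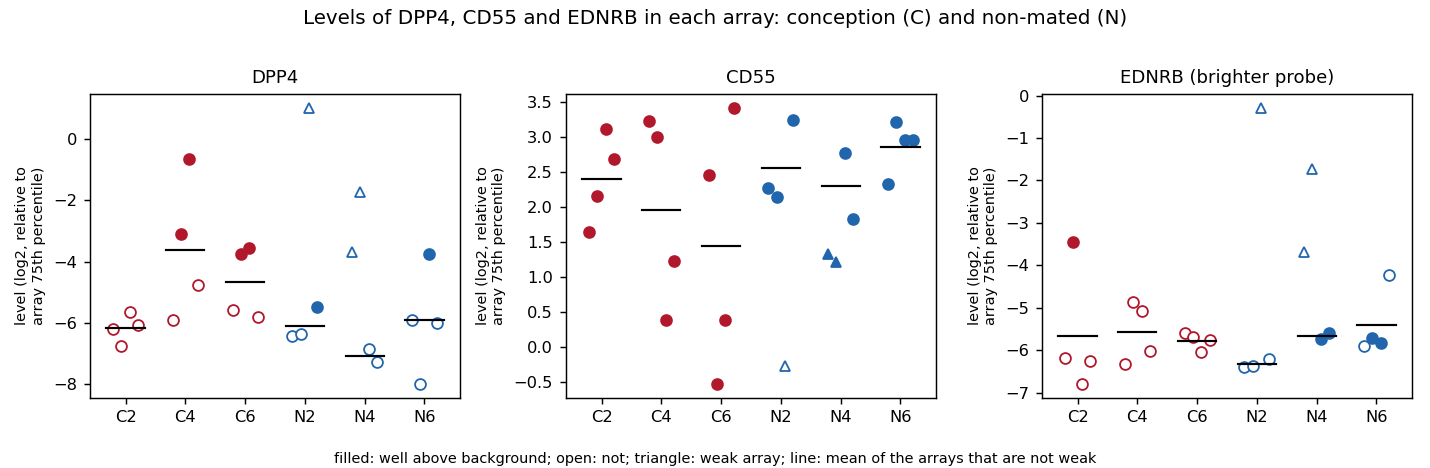
Levels of DPP4, CD55 and the brighter EDNRB probe on each array (vertical axis, log2 relative to the 75th percentile of the array), with groups and symbols as for the other plot of levels. DPP4 reaches -0.67 on 1 array of conception day 4 and is open, not well above background, on most arrays. CD55 splits into high and low arrays on conception days 4 and 6, from -0.53 to 3.42 on day 6.

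Other genes that rise in mid-secretory endometrium were described from a list of 36, of which 26 were on the array and 21 were tested. None passed in any comparison. Conception minus non-mated was higher for 14 and lower for 7 of them on day 4, with a median of 0.48 against 0.02 over all features, and of 0.24 against 0.01 without the low-signal arrays. The smallest p on that day was that of GADD45A, a stress-induced growth arrest gene, at 2.65 ± 0.55 (limma adjusted p = 0.273), followed by LMCD1 at 1.10 ± 0.47 (limma adjusted p = 0.687). Without the low-signal arrays they stood at 2.03 and 0.61. On day 2 the medians were -0.09 for the list and -0.15 over all features, and on day 6 they were 0.00 for both.

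Between days of conception cycles, 13 of the 21 were higher on day 4 than on day 2, with a median of 0.50, and 3 were higher and 18 lower on day 6 than on day 4, with a median of -0.52, while the median of all features was -0.01 or closer to 0. These comparisons share the day 4 arrays. GADD45A was 1.89 ± 0.55 higher on day 4 than on day 2 (limma adjusted p = 0.906). NNMT, which methylates nicotinamide, lay at -2.09 ± 0.85 and LIF, a cytokine that mouse implantation requires, at -2.17 ± 0.94 for day 6 against day 4 (limma adjusted p = 1.00 for both). On day 6 NNMT differed between cycle types by -3.04 ± 0.85 and AOX1, an aldehyde oxidase, by -3.41 ± 1.41 (limma adjusted p = 1.00 for both).

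Of 11 genes known to fall in the mid-secretory phase, 7 were on the array and 6 were tested, and none passed. On day 6, 5 of the 6 were higher in conception cycles, with a median of 0.25 against 0.00 over all features, and MMP11, a matrix metalloproteinase, had the smallest p at 2.10 ± 1.03 (limma adjusted p = 1.00). On day 4 the median was 0.12 and on day 2 it was 0.38, or 0.02 and 0.10 without the low-signal arrays. Beside GPX3, 5 other glutathione peroxidases were tested and none passed. On day 4 they had a median of 0.22, or 0.01 without the low-signal arrays, and GPX1 and GPX2 lay at 0.44 ± 0.60 and -1.07 ± 1.35 (limma adjusted p = 0.786 and 0.773), or 0.01 and -2.60 without the low-signal arrays.

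The listed genes were set against each other over the 21 arrays. Among 10 pairs of the 5 genes tested, SPP1 and GPX3 had the highest correlation, with Pearson r = 0.449 (permutation p = 0.0416, adjusted p = 0.416 over the 10 pairs) and Spearman rho = 0.342 (permutation p = 0.130, adjusted p = 0.652). The r was 0.518 without the 2 arrays farthest from the median of SPP1, 0.431 on day 1 of scanning (n = 11) and 0.474 on day 2 of scanning (n = 10). PAEP correlated with SPP1 at r = 0.154 and rho = -0.069, with permutation p = 0.506 and 0.767 (adjusted p = 0.843 and 0.943), and at -0.235 without 2 arrays. No pair passed.

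The genes most alike to each were chosen by the highest Pearson r over the same arrays among 7538 other named genes, as a description with no test, and they share the scaling of each array. For PAEP they were AKR1C3, an enzyme of steroid and prostaglandin metabolism, at r = 0.764, LIF at 0.750 and ADCY4 at 0.657. Without the 2 arrays farthest from the median of PAEP the r was 0.566 for AKR1C3 and 0.539 for LIF, but 0.659 for ADCY4. Conception day 4 replicate 2, the brightest for PAEP, was also the brightest for AKR1C3, at -2.27 against -3.73 for the next array. On conception day 6 replicate 1 AKR1C3 read -5.58, the same value as DPP4 there, which was not well above background. On how many arrays AKR1C3 was well above background is not given here.

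For GPX3 the most alike genes were TESC at 0.777, SLC25A40 at 0.732 and APBB1IP at 0.721, with 0.744, 0.636 and 0.759 without the 2 arrays farthest from the median of GPX3. TESC lay between 0.97 and 1.22 on 5 arrays, 3 of conception day 4 and 2 of conception day 6, and at most at 0.26 on the other 16, and conception day 4 replicate 4, the lowest of its group for GPX3, was at -0.04. For SPP1 they were ZNF484 at 0.653, PARP9 at 0.600 and ANKRD29 at 0.593, and for MAOA ABHD5 at 0.773, FAM199X at 0.750 and ZNF596 at 0.748.

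CD55 had the closest companions. SLC15A1, a peptide transporter of epithelia, followed it at r = 0.892 and GMPR at 0.872, and without the 2 arrays farthest from the median of CD55 at 0.862 and 0.765. The same 5 arrays were the lowest for CD55 and for SLC15A1: conception day 2 replicate 1, conception day 4 replicates 3 and 4, and conception day 6 replicates 2 and 3. SLC15A1 ranged from -2.52 to -0.09 on these and from 1.83 to 4.33 on the other 16. Within those 16 arrays the r of CD55 and SLC15A1 was 0.628.

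**Figure D4:**
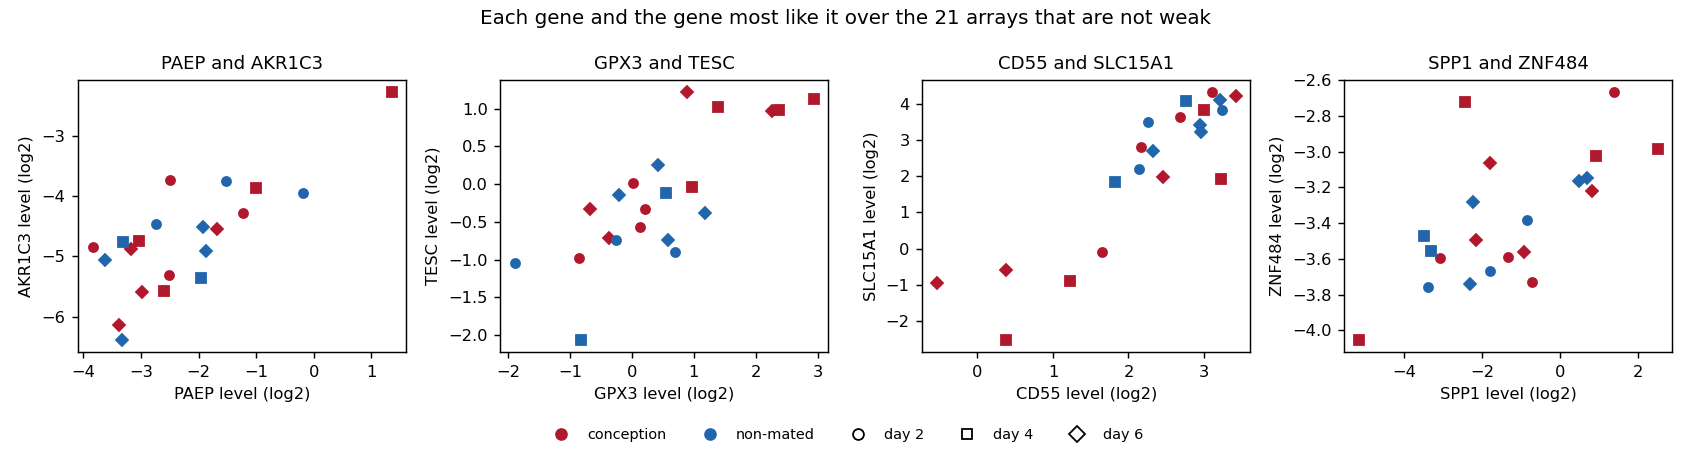
Level of PAEP, GPX3, CD55 and SPP1 (horizontal axes) against the level of the gene most alike to it (vertical axes), both in log2 relative to the 75th percentile of the array, on the 21 arrays without low signal; colour gives the cycle type and shape the day. For CD55 and SLC15A1 5 conception arrays lie apart at the lower left, and 1 conception day 4 array lies apart at the upper right for PAEP and AKR1C3.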

How the data were processed

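Per the labels' protocols, Trizol-extracted RNA was amplified into cRNA carrying the dye Cy3. The deposited scanner files give each spot's fluorescence intensity on a linear scale, background-corrected with Agilent Feature Extraction (version 9.5.3.1 per the file headers, 10.7.3.1 per the submitters' processing notes), with flags, read as other values, for spots well above background, saturated or outlying. The authors also deposited a log2 table, whose array differences followed the scanner values at r of at least 0.976. Its baseline is unknown and it served as an alternative only. Control and outlier-flagged spots were dropped and the 2 spots of each of 20217 probes averaged. For a level, the 75th percentile of an array was subtracted from its log2 processed signals. Depth does not apply to arrays, and their number limits the precision. A probe was kept if some group had it well above background on 3 or more of its 4 arrays (12780 probes), the probe with the highest mean standing for a gene. Names came from the files for 7461 probes, from synonyms for 253, gene IDs for 3275 and transcript accessions for 274 in the RefSeq table, 498 kept an unmatched name and 8456 have none. Coordinates of that table were not used.

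A single limma model (version 3.58.1 in R 4.3.3, with lmFit and eBayes) held the 6 group means and left 18 residual degrees of freedom, with two-sided tests, Benjamini-Hochberg adjustment over 12247 features and a threshold of 0.05. There were 11 comparisons. Python 3.11.15 with pandas 2.3.3, numpy 2.4.6, scipy 1.17.1 and matplotlib 3.10.9 computed the rest, with 100000 permutations for correlations. The fit was tested on simulated data with independent normal noise. These held no low-signal arrays, slide effects or scan range effects, so the test does not cover them. The listed genes, the related gene lists and the cell type markers were chosen with earlier results of these data known. List genes are named where they pass in a comparison, or else the 2 with the smallest p as values. Most alike genes are the 3 of highest r. A gene of 1 related list and 1 of the most alike genes are not reported here. Low-signal arrays are those with under 40% of probes well above background. Of the other marker lists, the median difference between cycle types on day 4 was -0.82 for natural killer cells, 0.26 for epithelium and 0.33 for smooth muscle, which without the low-signal arrays turned to 0.68, -0.32 and -0.29. It was 0.74 for T and B cells, 0.45 for endothelium and 0.32 for stroma, and 1.53, 0.52 and 0.58 without those arrays. None of these genes passed. Alternatives were normexp correction, quantile normalization, no filter, slide, scan day, scan range or replicate number as a block, omission of the low-signal arrays or of each array, the authors' table and the mean of a gene's probes.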

Additional observations from a re-analysis of the deposited data

Results flagged for a closer look

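In each group of 4 arrays the gap of the highest or lowest array to its nearest neighbour was set against the range of the group, for 7 genes in 6 groups. Of these 42 groups, 5 had an array standing apart, and chance alone flags about 1 in 20 groups. On non-mated day 2 replicate 3, the array with 4.33% of probes well above background, DPP4 stood at 1.01, MAOA at -0.28 and EDNRB at -0.28, each not well above background and above the other arrays of the group. MAOA at conception day 4 replicate 4 stood at -2.11, below the other 3 arrays, and was well above background. EDNRB at non-mated day 6 replicate 4 stood at -4.21, above the other 3 arrays, and was not well above background.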

How the results depend on the processing

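No listed gene passed the threshold of limma in any of the 11 comparisons under any setting. The GPX3 differences of conception day 4 from non-mated day 4 and from conception day 2 kept their sign under 34 of 34 settings. Many of these settings could not change them, such as omission of an array of another group, no filter or the mean of a gene's probes. Counts of all features past the threshold moved as follows. For conception against non-mated on day 6 the count of 1 became 0 with normexp correction, quantile normalization, no filter, or slide, scan day, scan range or replicate number as a block, 3 without the low-signal arrays, and 0 to 4 with single arrays left out. For the mean of days the count of 1 became 0 with normexp, quantile or slide, 2 with scan day as a block or without the low-signal arrays, and 1 to 4 with single arrays left out. For conception day 4 against day 2 the count of 0 became 1 without the low-signal arrays and 0 to 3 with single arrays left out. For conception day 6 against day 2 the count of 2 became 0 with normexp, quantile, no filter, slide or scan range, 1 with the replicate block, 208 (1.70%) without the low-signal arrays, and 0 to 4 with single arrays left out. For day 4 between cycle types, single omissions gave 0 to 1. The cause was not tested. Quantile normalization moved the median of all features by the largest amount on day 2 between cycle types, from -0.15 to 0.49, and on day 4 from 0.02 to 0.41, where GPX3 stood at 1.99 in place of 2.09. Replicate numbers were not taken as pairs. Of 60 pairs of same-numbered arrays 20 had a correlation of deviations over 0.1, from -0.672 to 0.634, and 12 of 24 arrays correlated best with their own number. With the replicate block the GPX3 difference on day 4 was 2.09. Low signal limits DPP4 and EDNRB, which are near background on most arrays. The scan range block, the DPP4 fold with single arrays left out and the SPP1 spread over 20 arrays were chosen after seeing the data.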
